A study of Mus musculus with 19 samples.

Results

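The genes of epithelial adhesion and intermediate filaments described here are the adhesion genes Cdh1, Cdh2, Epcam, Cldn6 and Pecam1 and the filament genes Krt8, Krt18, Vim, Lmna and Nes. They were taken by symbol and are 10 of 23420 genes counted in 19 RNA-seq libraries of mouse pluripotent cells. The libraries came from 3 embryonic stem cell (ESC) lines, 2 epiblast stem cell (EpiSC) lines and 14 induced pluripotent stem cell (iPSC) libraries, each from 1 line or clone. The study asked whether iPSC reprogrammed from strains that resist reprogramming lie closer to naive ESC or to primed EpiSC.

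The ESC were male lines of NOD/ShiLtJ, WSB/EiJ and 129S1/SvImJ at passage 6, supplied as frozen pellets and kept in serum and LIF with inhibitors of GSK3B and MEK. The EpiSC were male lines made elsewhere, NOD/ShiLtJ at passage 38 and a 129 line of 129/Sv background at passage 16, so that strain, line and laboratory cannot be told apart between them. The iPSC were clones from embryonic fibroblasts of pooled littermates, infected with a constitutive lentivirus that carries Oct4, Klf4, Sox2 and Myc and that was not removed. 2iS is ESC/LIF medium, which contains serum and LIF, with the same pair of inhibitors added. There were 2 male and 2 female NOD/ShiLtJ clones and 2 male and 2 female WSB/EiJ clones in 2iS at passages 16 to 26. There were also 2 male and 2 female 129S1/SvImJ clones in ESC/LIF at passages 17 to 21, and the same 2 male clones, 1 and 17, after a move to 2iS at passages 31 and 30. The iPSC were depleted of feeder fibroblasts before harvest. Groups were taken from the sample titles, since the source names and characteristics of the same samples contradict them, and the counts of Y-linked genes contradicted the sex of the title in 0 libraries.

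E-cadherin, encoded by Cdh1, joins neighbouring epithelial cells at adherens junctions, and naive pluripotent cells need it to grow as compact domed colonies. When cells leave an epithelial state, E-cadherin is often replaced by N-cadherin (Cdh2), and vimentin (Vim) filaments take the place of the paired keratins Krt8 and Krt18. Reprogramming of fibroblasts runs through the opposite change, from a mesenchymal to an epithelial state, and naive mouse cells are in addition known for PECAM1 on their surface.

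Between 92996 and 226794 read pairs were counted on genes in 17 libraries, and 430173 and 567432 in the NOD/ShiLtJ male iPSC. These were 1.15% to 1.74% of uniquely aligned read pairs in the 17 libraries and 5.59% and 5.62% in the NOD/ShiLtJ males. Levels are given as CPM, the count of a gene scaled to the depth of its library, after TMM scaling, which corrects for libraries dominated by a few genes. A count of 3 was 4.15 to 33.9 CPM, depending on the library, so that most values below rest on few read pairs, and intervals and floors cover counting error only. The libraries were made with a stranded kit and the strand setting of the counting is not given in the sources used here. Of the 100 genes with the most counts in the 17 libraries, 87 share exon bases with a gene on the opposite strand, against 39 of 100 in the NOD/ShiLtJ males. Over all 23011 genes matched to the annotation, 24.6% do. Such genes held 61.3% to 76.8% of counts on matched genes in the 17 libraries, and 38.2% and 38.7% in the NOD/ShiLtJ males. Whether a counted pair came from the named gene's strand thus cannot be told. Of the 10 genes, 9 share no exon base with an opposite-strand gene in GENCODE M21, and Krt8 shares 101 bases (5.16% of its exons) with the non-coding Gm36026. The NOD/ShiLtJ males were kept out of the comparisons of cell state, as in the study.

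The labels of state held for the naive lines. The sum of 11 naive markers (such as Zfp42 and Esrrb) was 1201 to 1774 CPM in the ESC and 1549 to 2487 in 12 iPSC, against 36.0 and 63.0 in the EpiSC. All 9 naive markers tested were lower in EpiSC than in ESC, beside 7.3% of all genes tested, with a median log2 fold change of -6.02. Markers of the primed state were mixed. Of the 12, Fgf5, Pou3f1, T, Foxa2, Cer1 and Cd40 had no count in any ESC, and none was at 0 in both EpiSC. Only 3 of 12 were tested, Lefty2, Dnmt3b and Zic5. Of these Lefty2, a Nodal antagonist, was lower in EpiSC than in ESC (log2 fold change -4.27, adjusted p = 0.0123 by edgeR). In 12 iPSC against EpiSC, Dnmt3b (-1.16) and Zic5 (-2.19) were called lower and Lefty2 (3.14) higher. None of the 9 naive markers was called in 12 iPSC against ESC by edgeR, where 3 had an unadjusted p under 0.05, or by DESeq2, where 2 had. Xist, the RNA of X inactivation, which overlaps its antisense partner Tsix, had 593 to 610 counts in the male ESC and 115 to 487 in the male iPSC, against 2 and 14 in the EpiSC.

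Promoter sequences, 250 bases before to 50 after a RefSeq gene start on GRCm38.p6, were at hand for Epcam, Cldn6, Krt8, Krt18, Vim, Lmna and Nes. Those of Epcam, the member that fell when clones were moved to 2iS, and of the keratin pair, which moved together, are shown 5′ to 3′ on the gene's strand. Capitals mark every match, on either strand, to the E-box CACCTG, the TATA box TATAAA, the CCAAT box CCAAT, the GC box GGGCGG or the AP-1 motif TGANTCA.
Epcam, plus strand of chr17:87635729-87636028: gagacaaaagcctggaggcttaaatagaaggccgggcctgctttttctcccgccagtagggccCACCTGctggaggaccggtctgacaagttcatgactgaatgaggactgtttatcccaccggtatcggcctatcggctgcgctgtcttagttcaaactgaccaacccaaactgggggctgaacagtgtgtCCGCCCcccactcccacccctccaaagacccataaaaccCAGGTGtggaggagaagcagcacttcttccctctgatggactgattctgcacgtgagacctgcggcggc
Krt8, minus strand of chr15:102004293-102004592: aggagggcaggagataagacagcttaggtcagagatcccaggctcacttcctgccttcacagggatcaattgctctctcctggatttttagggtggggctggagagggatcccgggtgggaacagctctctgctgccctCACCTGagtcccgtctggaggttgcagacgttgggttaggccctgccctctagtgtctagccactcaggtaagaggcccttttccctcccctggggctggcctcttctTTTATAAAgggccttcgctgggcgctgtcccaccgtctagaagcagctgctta
Krt18, plus strand of chr15:102027966-102028265: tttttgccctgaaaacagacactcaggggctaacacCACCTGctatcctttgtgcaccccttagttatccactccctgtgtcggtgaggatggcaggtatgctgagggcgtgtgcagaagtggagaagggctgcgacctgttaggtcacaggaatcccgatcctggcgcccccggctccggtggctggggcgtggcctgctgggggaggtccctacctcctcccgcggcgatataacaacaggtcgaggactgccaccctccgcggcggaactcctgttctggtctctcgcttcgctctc
The Epcam window held the E-box 2 times, starting 187 and 19 bases before the gene start, and a GC box 58 bases before it. The Krt8 window held 1 E-box, 111 bases before the start, and a TATAAA on each strand that overlap each other 3 bases and 1 base before it. The Krt18 window held 1 E-box, 214 bases before the start, and none of the other 4 motifs. Over all 32851 promoters of the table, 20.2% held the E-box, 13.6% the TATA box, 37.4% the CCAAT box, 35.7% the GC box and 7.81% the AP-1 motif. A match says only that the letters are present.

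Pecam1 had no count in either EpiSC line and at least 2 in each ESC and iPSC library. In CPM, Nes was highest in both EpiSC lines, and Vim was lower in each of 12 iPSC than in any ESC or EpiSC line. Krt8 and Krt18 were higher in EpiSC than in ESC by the test, but this rested on the 129 EpiSC line, and Cdh1, at 266 CPM there, had no count in the NOD/ShiLtJ EpiSC line. In these bulk samples, fewer cells of a type and less RNA per cell cannot be told apart.

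**Figure D1:**
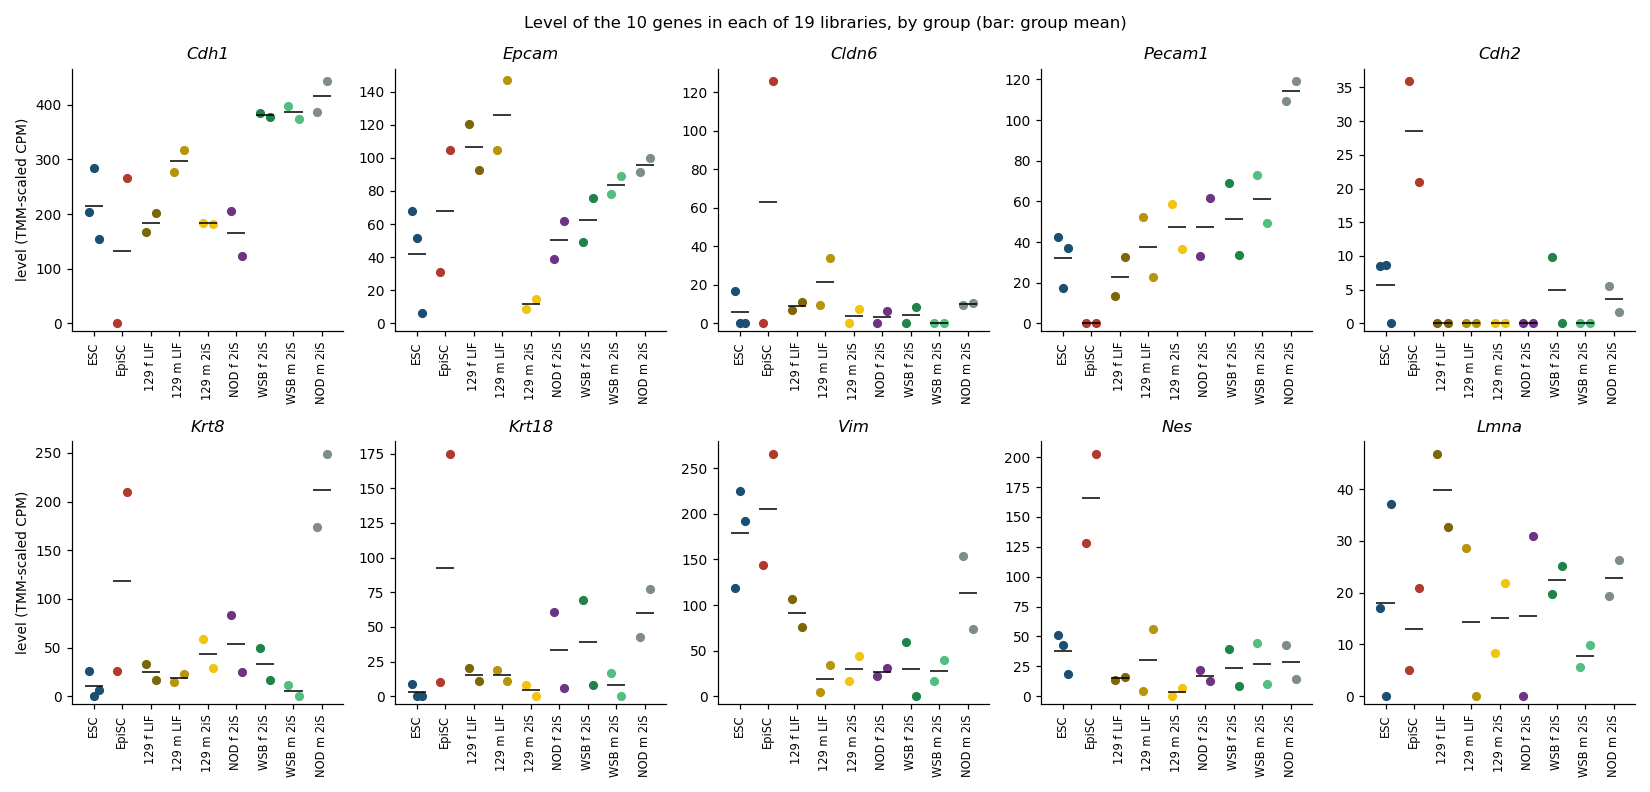
Level in CPM (y axis, TMM-scaled) of each of the 10 genes in 19 libraries by group (x axis: f and m for female and male, LIF for ESC/LIF), with 1 point per library and a bar at the group mean. The EpiSC points of Pecam1 lie at 0, those of Nes at 129 and 203 lie above all others, and the 4 WSB/EiJ iPSC points of Cdh1 lie within 375 to 398.

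A gene was tested where its counts passed edgeR's filter for low counts, which 7 of the 10 genes did in the comparisons of state, all but Cdh2, Cldn6 and Lmna. A gene that passed through the group where it is high had to differ, so the counts that follow describe the genes tested and not all 10. Calls were made at an adjusted p under 0.05 by edgeR's quasi-likelihood test over 3986 genes. EpiSC against ESC called 3 of the 7 (Krt8 and Krt18 higher, Pecam1 lower), where 14.9% of all genes tested were called, 7.55% higher and 7.3% lower. Against ESC, 12 iPSC had 1 of 7 called (Vim, lower), where 6.27% of all genes were, 0.928% higher and 5.34% lower. Against EpiSC, the same 12 iPSC had 4 of 7 called (Pecam1 higher, and Krt8, Vim and Nes lower), where 28.5% of all genes were, 12.1% higher and 16.4% lower. With uniquely aligned read pairs as library size, the median log2 fold change of all genes moved from -0.11 to -0.29, from 0.04 to 0.34 and from 0.13 to 0.62 in these comparisons, and the calls from 301 higher and 291 lower to 200 and 338, from 37 and 213 to 197 and 129, and from 483 and 654 to 1081 and 325. The 3 comparisons share samples pairwise and an estimate of the spread.

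**Figure D2:**
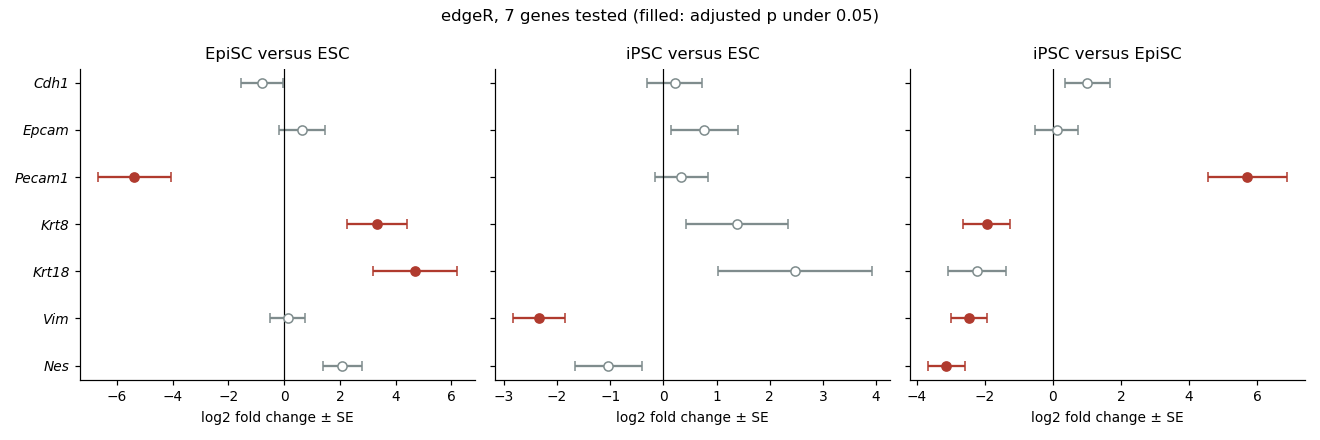
Log2 fold change (x axis) with its standard error for the 7 genes tested (y axis) in the 3 comparisons of state, each panel with an x axis of its own. Filled points passed an adjusted p under 0.05: in EpiSC against ESC these are Pecam1 at -5.37, Krt8 at 3.33 and Krt18 at 4.70.

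Cdh1 (chr8:106603351-106670246, plus strand, GRCm38) had the most counts of the 10 genes, 565 over the 17 libraries. It stood at 204, 155 and 285 CPM in the NOD/ShiLtJ, 129S1/SvImJ and WSB/EiJ ESC, and at 124 to 398 CPM (median 241) in 12 iPSC. The iPSC overlapped the ESC on both sides, and the log2 fold change of 0.21 (SE 0.52) did not pass (adjusted p = 0.860). The EpiSC lines were not alike. In the 129 EpiSC, Cdh1 had 38 counts (266 CPM), within the range of the ESC. In the NOD/ShiLtJ EpiSC it had 0 counts, where 3 counts would be 15.4 CPM, so that the 129 EpiSC was at least 17.2-fold higher and the mean level of the 3 ESC at least 13.9-fold higher. With both lines, EpiSC against ESC gave -0.80 (SE 0.76, adjusted p = 0.516). Without the 129 EpiSC the fitted value was -8.02 (adjusted p = 0.00161), and without the NOD/ShiLtJ EpiSC it was 0.34 (adjusted p = 0.736). The same held against iPSC, with 8.25 and -0.11 in place of 1.01. With 1 library per line, the difference between the EpiSC lines has no replicate check.

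Cdh2 encodes N-cadherin, the cadherin of neural and mesenchymal cells. It was at or near the floor, with 18 counts over all 19 libraries. In the EpiSC it had 7 counts in the NOD/ShiLtJ line (36.0 CPM) and 3 in the 129 line (21 CPM), against 1, 0 and 1 counts in the NOD/ShiLtJ, 129S1/SvImJ and WSB/EiJ ESC. Only 1 of 12 iPSC libraries had a count, WSB/EiJ female clone 23, with 1. Both EpiSC lines were thus above every ESC and every one of the 12 iPSC. The ratio of EpiSC to ESC was 5.86 (95% counting interval 1.25 to 55.0). Cdh2 did not pass the filter. With no filter, it was lower in iPSC than in EpiSC (log2 fold change -4.34, adjusted p = 0.000262), and 2.19 higher in EpiSC than in ESC without passing (adjusted p = 0.383). In the NOD/ShiLtJ line the order of the cadherins was thus the reverse of the 129 line: 0 and 7 counts of Cdh1 and Cdh2 in the former, 38 and 3 in the latter.

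Epcam (chr17:87635979-87651129, plus strand) encodes an epithelial adhesion molecule on the surface of pluripotent cells. It was at 68.1, 6.18 and 51.8 CPM in the NOD/ShiLtJ, 129S1/SvImJ and WSB/EiJ ESC, at 30.9 and 105 CPM in the NOD/ShiLtJ and 129 EpiSC, and at 8.38 to 147 CPM (median 77.0) in 12 iPSC. All 3 states overlapped, and none of the comparisons of state passed, with log2 fold changes of 0.65 (SE 0.82) for EpiSC against ESC and 0.77 (SE 0.62) for iPSC against ESC. The direction of iPSC against EpiSC (0.12, SE 0.63) turned with the samples and tool used. Within the iPSC it varied with medium and strain, as given below.

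Cldn6 (chr17:23679249-23682446, plus strand) encodes a tight junction claudin of early embryonic epithelia. It had 18 counts (126 CPM) in the 129 EpiSC and 0 in the NOD/ShiLtJ EpiSC, so that the former was at least 8.17-fold higher. The ESC had 2, 0 and 0 counts in the NOD/ShiLtJ, 129S1/SvImJ and WSB/EiJ lines, and 12 iPSC had 0 to 3, with 5 of them at 0. The 129 EpiSC was thus above all other libraries in CPM. Cldn6 did not pass the filter. With no filter it was called higher in EpiSC than in ESC (log2 fold change 3.23, adjusted p = 0.0472) and lower in iPSC than in EpiSC (-3.05, adjusted p = 0.000500), both on the counts of that 1 library.

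Pecam1 (chr11:106654217-106750628, minus strand) encodes an adhesion molecule of endothelial and blood cells that is also a surface marker of naive mouse pluripotent cells. It was at 42.6, 37.1 and 17.3 CPM in the NOD/ShiLtJ, 129S1/SvImJ and WSB/EiJ ESC and at 13.4 to 72.9 CPM (median 42.8) in 12 iPSC. Both EpiSC lines were at 0, below every ESC and iPSC library. Against 3 counts over both EpiSC, the mean level of the ESC was at least 3.63-fold and that of the 12 iPSC at least 5.02-fold higher. The test passed for EpiSC against ESC (adjusted p = 0.00847) and for iPSC against EpiSC (adjusted p = 0.00110), and the fitted log2 fold changes of -5.37 and 5.71 are no bounds, since a group at 0 makes them depend on a prior count. Without the NOD/ShiLtJ EpiSC the adjusted p for EpiSC against ESC was 0.0578, and without the 129 EpiSC it was 0.0555. iPSC and ESC overlapped (log2 fold change 0.34, SE 0.50, adjusted p = 0.757). Among 10 endothelial markers, Cdh5 was at 0 in all 19 libraries and Kdr in the 17 other than NOD/ShiLtJ males, and the summed level, whose part in the result was not tested, was 43.2 to 59.6 CPM in ESC, 25.7 and 140.0 CPM in the NOD/ShiLtJ and 129 EpiSC and 7.27 to 41.9 CPM in 12 iPSC.

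Krt8 (chr15:101996698-102004482, minus strand) and Krt18 (chr15:102028180-102032027, plus strand) encode the type II and type I keratins that pair into the filaments of simple epithelia. Their genes are neighbours on chromosome 15. Krt8 had 30 counts (210.0 CPM) in the 129 EpiSC and 5 (25.7 CPM) in the NOD/ShiLtJ EpiSC, against 3, 1 and 0 counts in the NOD/ShiLtJ, 129S1/SvImJ and WSB/EiJ ESC. Krt18 had 25 counts (175 CPM) in the 129 EpiSC and 2 (10.3 CPM) in the NOD/ShiLtJ EpiSC, against 1, 0 and 0 in the same ESC. In CPM both EpiSC lines were above all 3 ESC for both genes, though the NOD/ShiLtJ ESC, at 25.5 CPM of Krt8, came close to the EpiSC of that strain. The 129 EpiSC exceeded the NOD/ShiLtJ EpiSC 8.17 times for Krt8 (95% counting interval 3.14 to 27.0) and 17.0 times for Krt18 (4.24 to 148).

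EpiSC against ESC was called for both keratins, with log2 fold changes of 3.33 (SE 1.06, adjusted p = 0.0392) for Krt8 and 4.70 (SE 1.51, adjusted p = 0.0398) for Krt18. Both calls were lost without the 129 EpiSC, where the values were 1.21 and 1.66 (adjusted p = 0.673 and 0.699). They were also lost without the WSB/EiJ ESC (adjusted p = 0.109 and 0.107) and without the 129S1/SvImJ ESC (adjusted p = 0.121 and 0.128), and that of Krt18 without the NOD/ShiLtJ ESC (adjusted p = 0.0508). In 12 iPSC, Krt8 lay at 0 to 83.2 CPM (median 23.7) and Krt18 at 0 to 69.2 CPM (median 11.1), overlapping ESC and the NOD/ShiLtJ EpiSC, and every one lay below the 129 EpiSC. In iPSC against EpiSC the log2 fold change of Krt8 was -1.95 (SE 0.68, adjusted p = 0.0367), which turned to 0.19 without the 129 EpiSC and to -0.98 (adjusted p = 0.451) with the NOD/ShiLtJ male iPSC, and the -2.22 of Krt18 (SE 0.84, adjusted p = 0.0527) did not pass and turned to 0.83. Over 17 libraries, log2 CPM of Krt8 and Krt18 correlated with a Pearson r of 0.82, over all 19 of 0.84, and over 12 iPSC of 0.61. These values share depth and counts near 0 and are a description. Of 8 trophectoderm markers, another keratin-rich cell type of the early embryo, Krt7 was at 0 in all 19 libraries and Cdx2, Elf5, Gata3 and Hand1 were at 0 in both EpiSC. The sum was 154 CPM in the 129 EpiSC, 25.7 in the NOD/ShiLtJ EpiSC and 25.5 to 68.0 in ESC, and its part in the keratin result was not tested.

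**Figure D3:**
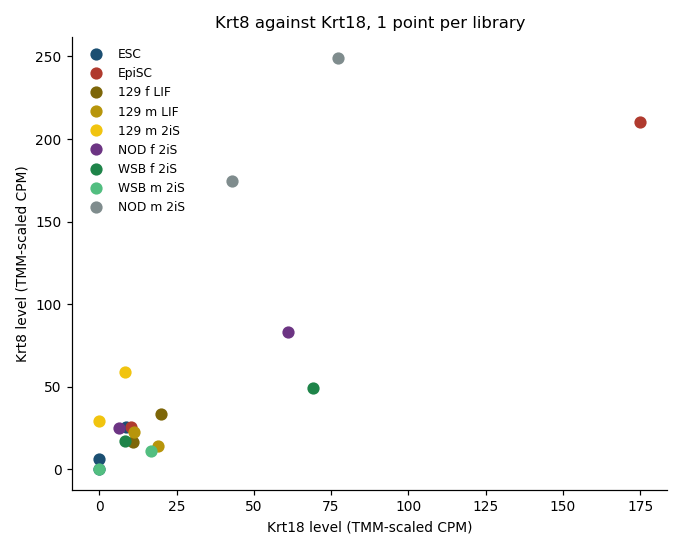
Krt8 level (y axis) against Krt18 level (x axis), both in TMM-scaled CPM, with 1 point per library coloured by group. The 129 EpiSC (175 and 210.0) and the NOD/ShiLtJ male iPSC (42.9 and 174, 77.2 and 249) lie apart from the other libraries, whose Krt8 levels do not pass 83.2.

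Vim (chr2:13573927-13582826, plus strand) encodes vimentin, the intermediate filament of mesenchymal cells. It was at 119, 192 and 225 CPM in the NOD/ShiLtJ, 129S1/SvImJ and WSB/EiJ ESC, at 144 and 266 CPM in the NOD/ShiLtJ and 129 EpiSC, and at 0 to 107 CPM (median 32.4) in 12 iPSC. Each of the 12 iPSC was below every ESC and EpiSC line. The highest iPSC were the 129S1/SvImJ female clones 5 and 8 in ESC/LIF, at 107 and 76.2 CPM, and WSB/EiJ female clone 28 had 0 counts. The difference was -2.34 on the log2 scale against ESC (SE 0.49, adjusted p = 0.00389) and -2.46 against EpiSC (SE 0.53, adjusted p = 0.00156). EpiSC and ESC overlapped (0.12, SE 0.64, adjusted p = 0.922), and this direction turned with the library left out. The call against EpiSC was lost without the 129 EpiSC (-1.96, adjusted p = 0.0747), and that against ESC with the NOD/ShiLtJ male iPSC added (-1.88, adjusted p = 0.0617).

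Markers of fibroblasts were also higher in ESC than in iPSC. The sum of 15 fibroblast markers was 894, 1521 and 1304 CPM in the NOD/ShiLtJ, 129S1/SvImJ and WSB/EiJ ESC, 97.7 and 357 CPM in the NOD/ShiLtJ and 129 EpiSC, and 0 to 98.8 CPM in 12 iPSC. All 5 markers tested were called lower in iPSC than in ESC by edgeR, beside 5.34% of all genes, and 4 were called by DESeq2. In the fit of iPSC alone 0 of the 15 passed the filter. The 5 thus passed through ESC or EpiSC, where they are high, and had to differ, so these counts describe the genes tested only. Of the 5, 3 were also lower in iPSC than in EpiSC, beside 16.4% of all genes. Among them Col1a1, a subunit of type I collagen, was at 272 to 396 CPM in ESC, 15.4 and 21 CPM in EpiSC and 0 to 29.7 CPM in 12 iPSC, and the matrix genes Ccdc80 and Tnc were at 0 in all 12 iPSC and at 59.6 to 148 CPM in ESC, while Dcn and Pdgfra were at 0 in all 3 ESC. The iPSC had been depleted of feeders, and a depletion of the ESC and EpiSC pellets is not stated in the sources used here. The part of these cells in the Vim result was not tested.

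**Figure D4:**
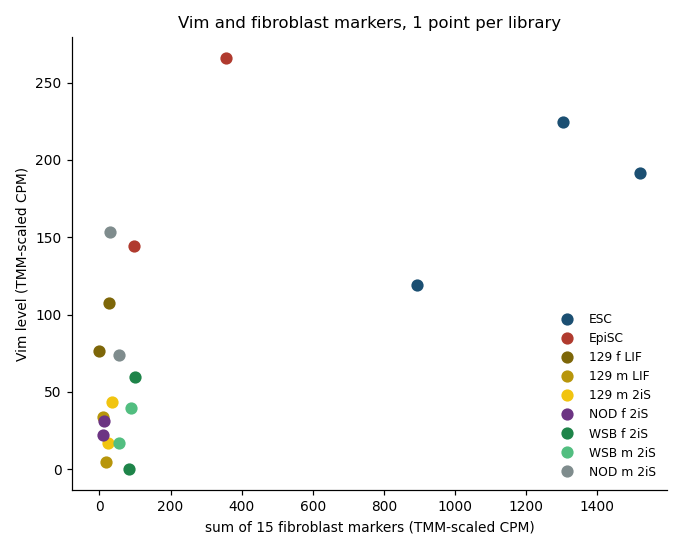
Vim level (y axis) against the summed level of 15 fibroblast markers (x axis), both in TMM-scaled CPM, with 1 point per library coloured by group. The 3 ESC lie at 894 to 1521 on the x axis, whereas the EpiSC have Vim at 144 and 266 with 97.7 and 357 on it, and no iPSC passes 98.8 on it.

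Nes (chr3:87971078-87980451, plus strand) encodes nestin, an intermediate filament of neural progenitors. It was at 129 and 203 CPM in the NOD/ShiLtJ and 129 EpiSC, at 51.1, 18.5 and 43.2 CPM in the NOD/ShiLtJ, 129S1/SvImJ and WSB/EiJ ESC, and at 0 to 56.5 CPM (median 12.9) in 12 iPSC. Both EpiSC lines were above every ESC and iPSC library. The log2 fold change of iPSC against EpiSC was -3.12 (SE 0.53, adjusted p = 0.000173), with the smallest p of the 4 calls. It was 2.09 higher in EpiSC than in ESC without passing (SE 0.71, adjusted p = 0.0522), and 5 of 10 other settings brought that value past the threshold. Of 5 fits with a library left out, 0 did, with log2 fold changes of 1.74 to 2.46. iPSC and ESC overlapped (-1.03, SE 0.63, adjusted p = 0.384). Of 9 neural markers, Neurog2 and Pax3 were at 0 in all 19 libraries, and the sum was 113 and 14 CPM in the NOD/ShiLtJ and 129 EpiSC against 61.8 to 86.4 in ESC and 18.6 to 107 in 12 iPSC. Its part in the Nes result was not tested.

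Lmna (chr3:88480147-88509956, minus strand) encodes lamin A and C, the nuclear lamina proteins that rise as cells differentiate. It had 0 to 7 counts in each of the 17 libraries. It was at 17.0, 37.1 and 0 CPM in the NOD/ShiLtJ, 129S1/SvImJ and WSB/EiJ ESC, at 5.14 and 21 CPM in the NOD/ShiLtJ and 129 EpiSC and at 0 to 46.9 CPM in 12 iPSC. The states overlapped, and Lmna did not pass the filter. With no filter the log2 fold change was -0.75 for EpiSC against ESC (SE 1.02, adjusted p = 0.785) and -0.06 for iPSC against ESC (SE 0.68).

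Levels per kilobase of exon allow for the length of genes. Whether pairs from each gene were counted with equal yield was not tested, so the order describes counts. By this measure Cdh1 led in ESC with 46.9 ± 14.4 CPM per kb (SD, n = 3), followed by Vim with 37.6 ± 11.4. These neighbours did not differ beyond their spread. Epcam (19.2 ± 14.6), Nes, Krt8, Pecam1, Cldn6, Lmna, Krt18 and Cdh2 followed, the last 7 at 5.86 to 0.71 CPM per kb. In 12 iPSC Cdh1 (58.2 ± 21.9 CPM per kb, SD, n = 12) was followed by Epcam (33.4 ± 18.9), Krt8 (15.3 ± 11.9), Krt18 (13.4 ± 15.6), Vim (7.93 ± 6.51) and Pecam1 (7.17 ± 3.02), with each neighbouring pair overlapping within 1 SD. Cldn6, Lmna, Nes and Cdh2 had means of 4.01, 3.28, 3.06 and 0.10 CPM per kb. In EpiSC the mean order was Krt18, Krt8, Vim, Cldn6, Epcam, Cdh1 and Nes, at 64.5 to 25.8 CPM per kb, with an SD above the mean for Krt18, Krt8, Cldn6 and Cdh1 (n = 2).

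The other genes of junctions and filaments were mostly too low to test. Of 40 further junction genes 14 were tested, with 1 called in EpiSC against ESC, where 14.9% of all genes tested were. In iPSC against ESC 0 were called by edgeR and DESeq2 (1 with an unadjusted p under 0.05 by each), beside 6.27% of all genes by edgeR. In iPSC against EpiSC 3 were called, beside 28.5% of all genes. The median log2 fold change in EpiSC against ESC was -0.16, beside -0.11 for all genes. Gja1, the gap junction protein connexin 43, was 2.12 higher in EpiSC than in ESC (SE 0.61, adjusted p = 0.0238). Chosen after their values were seen, Dsg2, a desmosomal cadherin, was 2.28 higher in iPSC than in EpiSC on the log2 scale, and Cxadr, an adhesion receptor, was lower (-1.28). Of 15 regulators of the epithelial state 2 were tested, and Elf3, an epithelial transcription factor, was lower in EpiSC, with 1 count in all, than in ESC, at 61.8 to 69.1 CPM (-4.17, SE 1.38, adjusted p = 0.0448).

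Of 22 genes of the mesenchymal shift 5 were tested. Fn1, the matrix protein fibronectin, was at 942 to 1205 CPM in ESC, 61.7 and 567 CPM in the NOD/ShiLtJ and 129 EpiSC and lower in EpiSC (-1.84, SE 0.61, adjusted p = 0.0450), where the fibroblast sum was lower too. In iPSC against EpiSC 1 of the 5 was called, beside 28.5% of all genes. This was Tagln, an actin-binding protein, at -1.27 (chosen after its value was seen). Of 33 further filament and lamina genes 16 were tested. Of these 3 (18.8%) were called in EpiSC against ESC, 1 (6.25%) in iPSC against ESC and 7 (43.8%) in iPSC against EpiSC. Over all genes tested, 14.9%, 6.27% and 28.5% were called in these comparisons. The neurofilament genes Nefm and Nefl were higher in EpiSC than in ESC, by 2.57 (SE 0.83) and 1.71 (SE 0.50) on the log2 scale, and Sun1, which ties the lamina to the cytoskeleton, was lower (-2.30, SE 0.68). Synm, a filament protein that joins vimentin, was lower in iPSC than in ESC (-2.04, SE 0.44, adjusted p = 0.00581). Nefm and Nefl share 1108 exon bases on opposite strands, and Elf3, Fn1, Sun1, Synm, Tnc, Dsg2, Cxadr and Tagln also share exon bases with an opposite-strand gene, so their values may belong to the partner. Of 10 primitive endoderm and 9 neural markers 1 each was tested, with 0 calls in the 3 comparisons of state by edgeR or DESeq2, and 1 unadjusted p under 0.05 by each, for primitive endoderm in iPSC against EpiSC. The primitive endoderm sum was 0 to 111 CPM in ESC, 25.7 and 126 CPM in the NOD/ShiLtJ and 129 EpiSC and 0 to 187 CPM in 12 iPSC.

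The move of 129S1/SvImJ male clones 1 and 17 from ESC/LIF to 2iS was followed by a fall of Epcam. Clone 1 went from 22 counts (105 CPM) to 1 count (8.38 CPM), and clone 17 from 13 counts (147 CPM) to 2 (14.5 CPM). Both 2iS libraries were below every other iPSC library, and the 129S1/SvImJ female clones in ESC/LIF, at 120.5 and 92.5 CPM, were like the males in that medium. The log2 fold change of Epcam was -3.19 (SE 0.66, adjusted p = 0.00222), and it was 1 called of 2 members tested, where 3.98% of 3388 genes were called, 1.24% higher and 2.74% lower. With 3 counts in all in 2iS, the ratio of ESC/LIF to 2iS was 10.05 with a 95% counting interval of 3.17 to 51.1. The call was lost with DESeq2 (-3.33, adjusted p = 0.0752) and without clone 1 in 2iS (-2.89, adjusted p = 0.0595). Medium and passage changed together in these clones and cannot be told apart. The other 129S1/SvImJ line with both inhibitors, the ESC, had 1 count (6.18 CPM), below the floor of 3 counts at 18.5 CPM. The NOD/ShiLtJ female and WSB/EiJ iPSC in 2iS had 5 to 14 counts (38.8 to 88.8 CPM).

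Cdh1 went from 277 to 184 CPM in clone 1 and from 317 to 182 CPM in clone 17. The 2iS libraries were below both male ESC/LIF libraries but within the range of the females, at 167 and 201 CPM, and the change of -0.59 (SE 0.31) did not pass (adjusted p = 0.404). The other 8 genes did not pass the filter over 12 iPSC. Krt8 went from 14.3 to 58.7 CPM in clone 1 and from 22.6 to 29.1 CPM in clone 17, a ratio of 2.55 with a counting interval of 0.818 to 9.38.

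**Figure D5:**
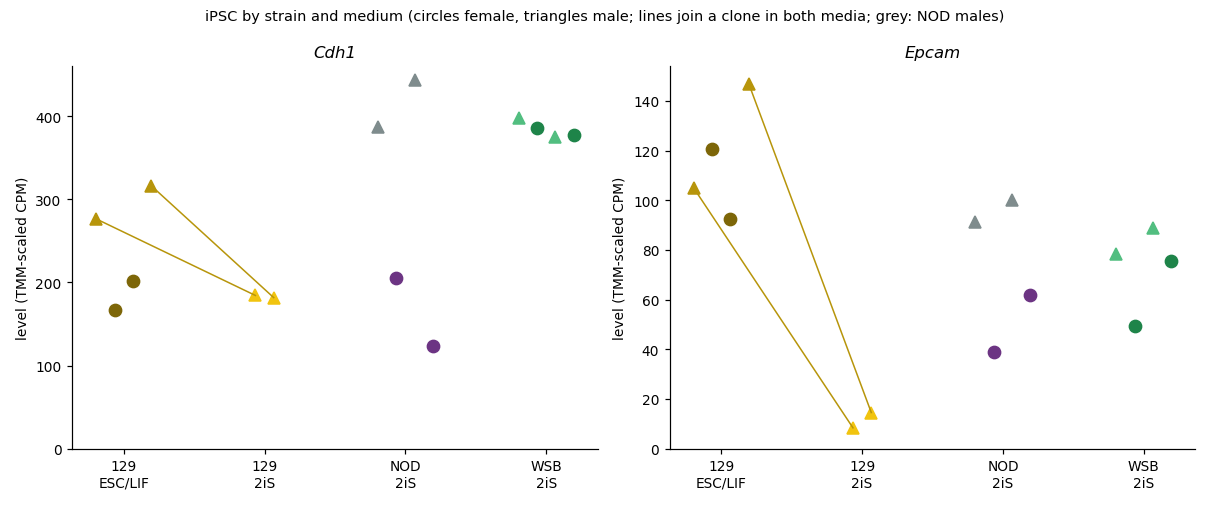
Level in TMM-scaled CPM (y axis) of Cdh1 and Epcam in 14 iPSC libraries by strain and medium (x axis), circles for female and triangles for male clones, with lines joining a clone in both media and NOD/ShiLtJ males in grey. Epcam falls from 105 and 147 to 8.38 and 14.5 along the lines, and Cdh1 of the WSB/EiJ clones lies at 375 to 398.

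Among iPSC in 2iS other than the NOD/ShiLtJ males, Cdh1 was higher in all 4 WSB/EiJ clones than in the clones of the other strains. The WSB/EiJ clones had 398 and 375 CPM in males (71 and 38 counts) and 385 and 377 CPM in females (39 and 45 counts). Their mean was 384 ± 10.4 (SD, n = 4). At such counts this narrow spread cannot be read as likeness of the clones. The 129S1/SvImJ clones had 184 and 182 CPM, and the NOD/ShiLtJ females 205 and 124 CPM. The differences were 1.08 against 129S1/SvImJ (SE 0.27, adjusted p = 0.0112) and 1.27 against NOD/ShiLtJ females (SE 0.26, adjusted p = 0.00167) on the log2 scale. Epcam was also higher in WSB/EiJ than in 129S1/SvImJ, at 49.4 to 88.8 against 8.38 and 14.5 CPM (2.55, SE 0.67, adjusted p = 0.0153), and overlapped between WSB/EiJ and NOD/ShiLtJ females, at 61.9 and 38.8 CPM (0.58, SE 0.44, adjusted p = 0.567). These were 2 of 2 members tested against 129S1/SvImJ, where 6.46% of genes were called (3.48% higher, 2.98% lower), and 1 of 2 against NOD/ShiLtJ, where 4.57% were (2.04% higher, 2.54% lower). NOD/ShiLtJ females against 129S1/SvImJ gave 0 of 2 by edgeR, where 3.51% were called (2.24% higher, 1.27% lower). There Epcam had an unadjusted p = 0.0135 and an adjusted p = 0.201, and by DESeq2 neither had an unadjusted p under the threshold.

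The calls between WSB/EiJ and 129S1/SvImJ were lost with DESeq2 (adjusted p = 0.0829 for Cdh1 and 0.156 for Epcam) and without either 129S1/SvImJ clone (0.144 and 0.151 for Cdh1, 0.178 and 0.108 for Epcam, leaving out clones 1 and 17 in turn). With WSB/EiJ males alone, which matches sex, both held (1.03, adjusted p = 0.0360, and 2.68, adjusted p = 0.0179). The call between WSB/EiJ and NOD/ShiLtJ females in Cdh1 held with WSB/EiJ females alone (1.31, adjusted p = 0.00715) and was lost without NOD/ShiLtJ female clone 52 (0.96, adjusted p = 0.141). The 129S1/SvImJ clones were made in ESC/LIF and moved later, whereas the others were derived in 2iS, so strain and history cannot be told apart here. The WSB/EiJ ESC, at 285 CPM, was likewise the highest of the 3 ESC in Cdh1, and below all 4 WSB/EiJ iPSC.

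The NOD/ShiLtJ male iPSC had the highest levels of Cdh1 (387 and 444 CPM) but for WSB/EiJ clone 12 at 398, and of Pecam1 (109 and 119 CPM), and Krt8 levels (174 and 249 CPM) above those of all other iPSC. Their Krt18 was at 42.9 and 77.2 CPM, Vim at 154 and 73.7, Epcam at 91.3 and 100.03, Nes at 42.9 and 14 and Lmna at 19.4 and 26.3, for clones 3 and 35. Against NOD/ShiLtJ females, 4 of 6 members tested were called, all higher, where 38.9% of 4457 genes were called, 14.3% higher and 24.6% lower. These were Cdh1 (1.21, SE 0.26), Krt8 (1.81, SE 0.42), Vim (1.98, SE 0.60) and Pecam1 (1.15, SE 0.43). Of the 6, only Cdh1 and Epcam also passed the filter in the fit without these males. Krt8, Krt18, Vim and Pecam1 were thus tested through the group where they are high. The count of calls therefore describes the genes tested and is no support for a difference of the members as a set. The share of read pairs counted on genes also differed between these groups, and its part in the result was not tested. With uniquely aligned read pairs as library size the median of all genes moved from 0.18 to 2.61, and the 6 members stood above it, at 3.07 to 4.41. With DESeq2, Cdh1 alone of the 6 was called (1.12, adjusted p = 0.00668). The call of Pecam1 was lost without male clone 3, male clone 35 or female clone 7 (adjusted p = 0.0681, 0.0825 and 0.286), and that of Vim without male clone 3 (1.27, adjusted p = 0.161) or female clone 7 (adjusted p = 0.0790), while Krt8 moved to 2.97 without female clone 7.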

How the data were processed

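RNA was sequenced with a stranded mRNA kit in 19 libraries. Per the study's methods, the authors trimmed reads with Trimmomatic, aligned them with TopHat 2.1.1 to GRCm38 and counted read pairs per gene with HTSeq. The deposited values are raw counts per gene with no normalization. Rows that name no gene (no feature, ambiguous, not unique) were kept out of library sizes, and read pairs on genes were 1.15% to 5.62% of uniquely aligned pairs. Groups and clones were taken from the titles, and nothing says that clones of a strain came from separate litters, so p-values measure the spread between these samples.

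Counts were tested with edgeR 4.0.16 (R 4.3.3) by its quasi-likelihood test, with TMM scaling, filterByExpr and Benjamini-Hochberg adjustment over all genes tested, and a call was an adjusted p under 0.05. State was fitted over 3 groups in 17 libraries, strain and medium over 6 groups in 12 iPSC and sex in NOD/ShiLtJ over 7 groups in 14 iPSC. The steps were tested on simulated data. Ratios of pooled counts have exact 95% intervals, and 3 counts set the floor. The alternatives were DESeq2 1.42.0, its size factors in edgeR, uniquely aligned pairs as library size, other filters, other sets of samples, strain as a covariate and each replicate left out, and a test of the sex difference between strains was chosen after seeing the data. Clones 1 and 17 in both media are the same lines and were paired in an alternative with clone as a replicate block. Their deviations correlated with r = 0.056 over 3388 genes.

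The 10 genes and the lists were chosen with earlier results of these data known, including lists of junction, epithelial regulator, mesenchymal and filament genes and of naive, primed, fibroblast, endothelial, trophectoderm, primitive endoderm and neural markers. From a list, up to 4 called genes with the largest change in EpiSC against ESC were named, or in iPSC against EpiSC if there were none, and up to 2 in iPSC against ESC. Some genes that these rules name are not reported here. Positions are from GENCODE M21 and promoters from RefSeq.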

Additional observations from a re-analysis of the deposited data

Results flagged for a closer look

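Of 19 sets of values, each a member over a group of 4 iPSC libraries, 3 had a library far from the others. Each rests on 1 to 3 counts, and a single count beside zeros is always picked out, so the usual chance rate of about 1 in 20 does not apply to the first pair. Cdh2 stood at 9.88 CPM (1 count) in WSB/EiJ female clone 23 and at 0 in the other WSB/EiJ clones. Cldn6 stood at 8.39 CPM (1 count) in WSB/EiJ female clone 28 and at 0 in the other WSB/EiJ clones. Cldn6 also stood at 33.9 CPM (3 counts) in 129S1/SvImJ male clone 17 in ESC/LIF, against 6.70 to 10.9 CPM in the other 3 libraries of that medium.

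The male minus female difference of iPSC was not the same in NOD/ShiLtJ and WSB/EiJ for 2 of the 6 members tested, in a test chosen after seeing the data. For Cdh1 the difference of the differences was 1.29 (SE 0.38, adjusted p = 0.0111), with both NOD/ShiLtJ males above both females and with -0.08 between WSB/EiJ males and females. For Krt8 it was 4.01 (SE 1.16, adjusted p = 0.00952), and the direction was opposite in the 2 strains. Male minus female was 1.81 in NOD/ShiLtJ and -2.19 (adjusted p = 0.520) in WSB/EiJ. The latter rests on 2 and 0 counts in WSB/EiJ males and 5 and 2 in females. Krt8 passed the filter among iPSC only with the NOD/ShiLtJ males, where it is high. Of all 4457 genes, 1039 were called by the same edgeR test, and the NOD/ShiLtJ males also stood apart in the share of read pairs on genes, whose part in the result was not tested.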

How the results depend on the processing

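Precision was limited by low counts on genes, since most members had under 10 counts in a library. Read pairs on genes were 1.15% to 1.74% of uniquely aligned pairs in the 17 libraries other than the NOD/ShiLtJ male iPSC. Of the alternatives for single members, 486 kept direction and call, 42 lost the call, 15 gained it and 14 turned the direction. The cause of these changes was not tested beyond what each alternative leaves out.

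Calls over all genes in EpiSC against ESC went from 592 to 206 with the NOD/ShiLtJ male iPSC, and to 262 to 574 with a library left out. Members called went from 3 to 1 with uniquely aligned pairs as library size, with the NOD/ShiLtJ males or without the WSB/EiJ ESC, to 5 with no filter and to 0 in male libraries (edgeR, of 4 tested, 1 with an unadjusted p under 0.05). With a library left out they were 0 to 3, with 0 without the 129S1/SvImJ ESC (3 with an unadjusted p under 0.05). In iPSC against ESC calls went from 250 to 600 with no filter, 165 in male libraries, 153 without the WSB/EiJ ESC and 85 to 250 with a library left out, and members from 1 to 0 with the NOD/ShiLtJ males (2 unadjusted). In iPSC against EpiSC calls went from 1137 to 1874 with no filter and 587 to 1127 with a library left out, and members from 4 to 7 with no filter, 2 in male libraries or with iPSC in 2iS only, and 3 to 6 with a library left out.

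With DESeq2 calls fell from 135 to 56 for medium (62 to 105 with a library left out), from 219 to 94 for WSB/EiJ against 129S1/SvImJ (96 to 288), from 119 to 47 for NOD/ShiLtJ females against 129S1/SvImJ (64 to 84), from 155 to 78 for WSB/EiJ against NOD/ShiLtJ females (92 to 232) and from 1733 to 1086 for NOD/ShiLtJ males against females (1217 to 1579), where uniquely aligned pairs gave 3527. The split of the last went from 638 higher and 1095 lower to 114 and 972 with DESeq2 and to 3460 and 67 with aligned pairs. With DESeq2, 0 of 2 members tested were called for medium (1 unadjusted) and 0 of 2 for WSB/EiJ against 129S1/SvImJ (2 unadjusted). For the NOD/ShiLtJ sexes it was 1 of 6 (3 unadjusted). With no filter, edgeR called 1 member for WSB/EiJ against 129S1/SvImJ. Every fit with a library left out, here and above, was by edgeR. Members called were then 0 to 1 for medium, 0 to 2 for WSB/EiJ against 129S1/SvImJ and 2 to 4 for the NOD/ShiLtJ sexes. They were 0 to 1 for WSB/EiJ against NOD/ShiLtJ females.

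Direction turned with a library left out for Cdh1 (-8.02 to 0.34), Epcam (-0.39 to 1.41) and Vim (-0.36 to 0.58) in EpiSC against ESC, and for Cdh1 (-0.11 to 8.25), Epcam (-0.62 to 1.18), Krt8 (-2.87 to 0.19) and Krt18 (-3.22 to 0.83) in iPSC against EpiSC. It also turned for Cdh1 in NOD/ShiLtJ females against 129S1/SvImJ (-0.59 to 0.081) and Krt18 in NOD/ShiLtJ males against females (-0.085 to 3.07). Vim in EpiSC against ESC was -0.13 with aligned pairs, and Epcam in iPSC against EpiSC was -0.0050 with DESeq2 and -0.38 with iPSC in 2iS only.

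With clone as a replicate block in the 4 libraries of clones 1 and 17, 188 genes were called against 192 without it, Epcam was -3.29 (adjusted p = 4.28e-05 by edgeR) against -3.17, and the pairing changed no call of a member.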

Other observations

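Over 17 libraries and 3753 genes with at least 100 counts in them, the genes whose log2 CPM was most like that of Cdh1 by Pearson correlation were B430010I23Rik (0.83), Tssk6 (0.82) and Tdgf1 (0.81). Those most like Epcam were Capn12 (0.81), Clca6 (0.80) and Ppp1r18 (0.80), those like Vim included B430319G15Rik (0.82) and Gm11149 (0.82), and those most like Nes were Cnbd2 (0.87), Gtpbp6 (0.87) and 1700101I11Rik (0.87). All of these but Tdgf1 and B430319G15Rik share exon bases with an opposite-strand gene, so that their values may belong to the partner. Tdgf1 shares none, and B430319G15Rik was not matched to the annotation, so its overlap is not known. Cdh2 and Nes correlated at 0.81 over 17 libraries and 0.37 over 12 iPSC. These are descriptions over libraries that share depth and the contrast of states.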
